A study of Mus musculus with 12 samples.

Results

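The Il6 family and the colony-stimulating factors were followed here as 8 mouse genes: the ligand genes Il6, Lif and Osm of the interleukin 6 family, the growth factor genes Csf1, Csf2 and Csf3, and the receptor genes Il6ra and Il6st. They were found by matching the RefSeq accession of each array probe to a gene symbol. A probe was matched for 7 of the 8 members, of 17305 genes on the array with a symbol. Lif had no matched probe and was not analysed here. Of the 7, 6 could be tested among 19319 genes and transcripts, and the dim Csf2 is described without a call. Il6, Csf1 and Csf2 are each printed as 10 spots of 1 probe, Csf3 and Il6st as 1 spot, and Osm and Il6ra have 2 different probes each.

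The samples are BV-2 cells, an immortalised line derived from mouse microglia, the macrophages of the brain. The 4 groups of 3 arrays are cells given 100 ng/ml lipopolysaccharide (LPS) and 20 µM curcumin together (LPS+curcumin), cells given 100 ng/ml LPS, cells given 20 µM curcumin, and untreated cells, with 6 h stated for the treatments and neither a time nor a vehicle stated for the untreated cells. LPS is a bacterial cell wall component sensed by Toll-like receptor 4, and curcumin is a polyphenol of turmeric. Because the labels do not say whether replicates came from separate cultures, p-values measure the spread between these samples only, and in bulk RNA fewer expressing cells and less RNA per cell cannot be told apart.

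Ligands of the interleukin 6 family signal through receptor complexes that contain gp130, the product of Il6st. For interleukin 6 itself, binding to the receptor encoded by Il6ra brings gp130 molecules together, which activates Janus kinases (JAK) and the transcription factor STAT3. STAT3 in turn induces Socs3, whose protein limits the signal. Csf1, Csf2 and Csf3 encode the growth factors M-CSF, GM-CSF and G-CSF, which support macrophages, granulocytes and their precursors, and microglia depend on signals through the M-CSF receptor.

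Promoter sequence shows where letters of 3 motifs lie near the start of these genes. The 250 bases before the annotated start are printed for Il6 and Csf1, which were higher with LPS, and for Il6st, which was not called in any comparison. Sequences are those of RefSeq on build GRCm38.p6, read 5′ to 3′ on the gene's strand, with matches in capitals. The regions are chr5:30012864-30013113 on the plus strand for Il6, chr3:107760470-107760719 on the minus strand for Csf1 and chr13:112463820-112464069 on the plus strand for Il6st.
Il6: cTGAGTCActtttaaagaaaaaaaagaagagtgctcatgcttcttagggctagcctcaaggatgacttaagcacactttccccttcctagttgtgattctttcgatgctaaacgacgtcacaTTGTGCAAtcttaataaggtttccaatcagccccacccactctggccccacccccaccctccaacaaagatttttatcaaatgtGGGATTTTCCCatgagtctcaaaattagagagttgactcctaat
Csf1: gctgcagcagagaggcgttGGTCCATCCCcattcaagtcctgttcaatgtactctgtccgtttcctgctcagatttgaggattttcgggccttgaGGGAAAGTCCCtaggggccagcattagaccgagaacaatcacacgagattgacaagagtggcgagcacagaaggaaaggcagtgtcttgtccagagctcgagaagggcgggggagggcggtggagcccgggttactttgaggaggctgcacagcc
Il6st: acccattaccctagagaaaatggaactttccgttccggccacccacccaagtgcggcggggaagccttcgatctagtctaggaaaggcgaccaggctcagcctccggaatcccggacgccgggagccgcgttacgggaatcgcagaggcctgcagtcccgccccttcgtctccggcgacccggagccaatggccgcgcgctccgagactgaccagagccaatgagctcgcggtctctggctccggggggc
The motifs searched on both strands were GGGA and CC with any 4 letters between them, a κB form bound by NF-κB, TTGCNNAA, a form bound by C/EBP proteins, and TGANTCA, a form bound by AP-1. Il6 held a κB match 44 to 35 bases before the start, which overlapped a match on the other strand, a C/EBP match 128 to 121 bases before it and an AP-1 match 249 to 243 bases before it. Csf1 held κB matches 231 to 222 and 155 to 146 bases before the start, the second overlapping a match on the other strand. Il6st held none of these letters. No promoter sequence was available here for Osm and Csf3, so neither was searched. Of the other searched members, Il6ra, which was not called higher, held a κB match 224 to 215 bases before its start, Csf2 a C/EBP match 145 to 138 bases before it, and Lif a κB match 178 to 169 and an AP-1 match 228 to 222 bases before it. In 32851 promoter windows of the same length, the κB letters occurred in 17.6%, the C/EBP letters in 9.56% and the AP-1 letters in 6.75%. A match describes the letters only and is not evidence of binding.

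Signals are given as the processed intensity divided by the 75th percentile of its array, so a relative signal of 1 equals that percentile, and levels of different probes are not compared. The share of spots well above background ran from 58.0% to 65.9% over the arrays. Each of the 3 slides held 1 array of each group, slide coincided with replicate number, and each group always lay at the same position, so position and group cannot be told apart. LPS+curcumin replicate 1 stood apart from its group: it correlated at 0.982 on average with LPS arrays and at 0.950 with curcumin arrays, whereas replicates 2 and 3 correlated at 0.984 and 0.985 with curcumin arrays and at 0.940 and 0.923 with LPS arrays. The scanner software marked 1594 outlier spots on LPS+curcumin replicate 2 and no more than 163 elsewhere. Of 12 microglia and macrophage markers, 11 had a probe and 8 were well above background on all 12 arrays. The summed relative signal of these markers ran from 209 to 365 with LPS+curcumin, 143 to 245 with LPS, 259 to 357 with curcumin and 175 to 279 untreated. Such a sum mostly reflects the brightest probes, here Trem2 and Tyrobp, and does not describe the markers as a group. Their mean log2 relative signals were 7.42 and 6.47 with curcumin, against 6.81 and 5.83 untreated, and neither difference was called. Single markers moved otherwise: on all 5 scalings Cx3cr1 (log2 difference −4.59 ± 0.62, SE), Tmem119 (−1.11 ± 0.26) and Spi1 (−1.48 ± 0.41) were lower with LPS+curcumin than with LPS, Cx3cr1 (−2.19 ± 0.62) and Tmem119 (−1.11 ± 0.26) were lower with curcumin than untreated, and P2ry12 was at least 2.36-fold lower with LPS. Cx3cr1 was well above background on 1 of 3 LPS+curcumin and 2 of 3 curcumin arrays, so its sizes are uncertain. With normexp, a correction that raises very dim signals, none of these marker calls was made. There Cx3cr1 was −0.88 against LPS and 0.93 against untreated, Tmem119 −0.31 and 0.17, Spi1 −1.31, and P2ry12 −0.01 with LPS. Each of 6 lists for other cell types had at most 1 member well above background on all arrays, with sums between 0.0159 and 5.52. Among their genes, curcumin alone raised Pecam1 (at least 15.5-fold, on all 5 scalings). S100b, Rbfox3 and Cd3e were also called higher, but at 0.26, 0.15 and −0.09 on spike-in scaling were not called there, where the endothelial gene Kdr was called lower (−1.48, adjusted p = 0.00303; on 75th percentile scaling −0.47 and not called). These markers are named after their values were seen. Pecam1 entered the test through the curcumin group alone and P2ry12 through the untreated group alone, which favours calls setting that group above another. The part of these levels in the results below was not tested.

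LPS raised the 4 ligand genes Il6, Csf3, Csf1 and Osm over untreated cells, while neither receptor gene passed the test by its brighter probe. Il6 rose 1351-fold and Csf3 at least 1617-fold, whereas Osm rose 3.31-fold and Csf1 4.20-fold. Against the 4 of 6 tested members called higher and 0 called lower, 4.12% of all tested features were called higher and 1.61% lower, or 5.73% in either direction. The median log2 difference was 1.90 over the 6 tested members and 0.01 over all features. A feature was called at a limma p adjusted by the Benjamini-Hochberg method below 0.05. Of the tested members, Csf3 was well above background on no untreated array and entered the test through the other groups.

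**Figure D1:**
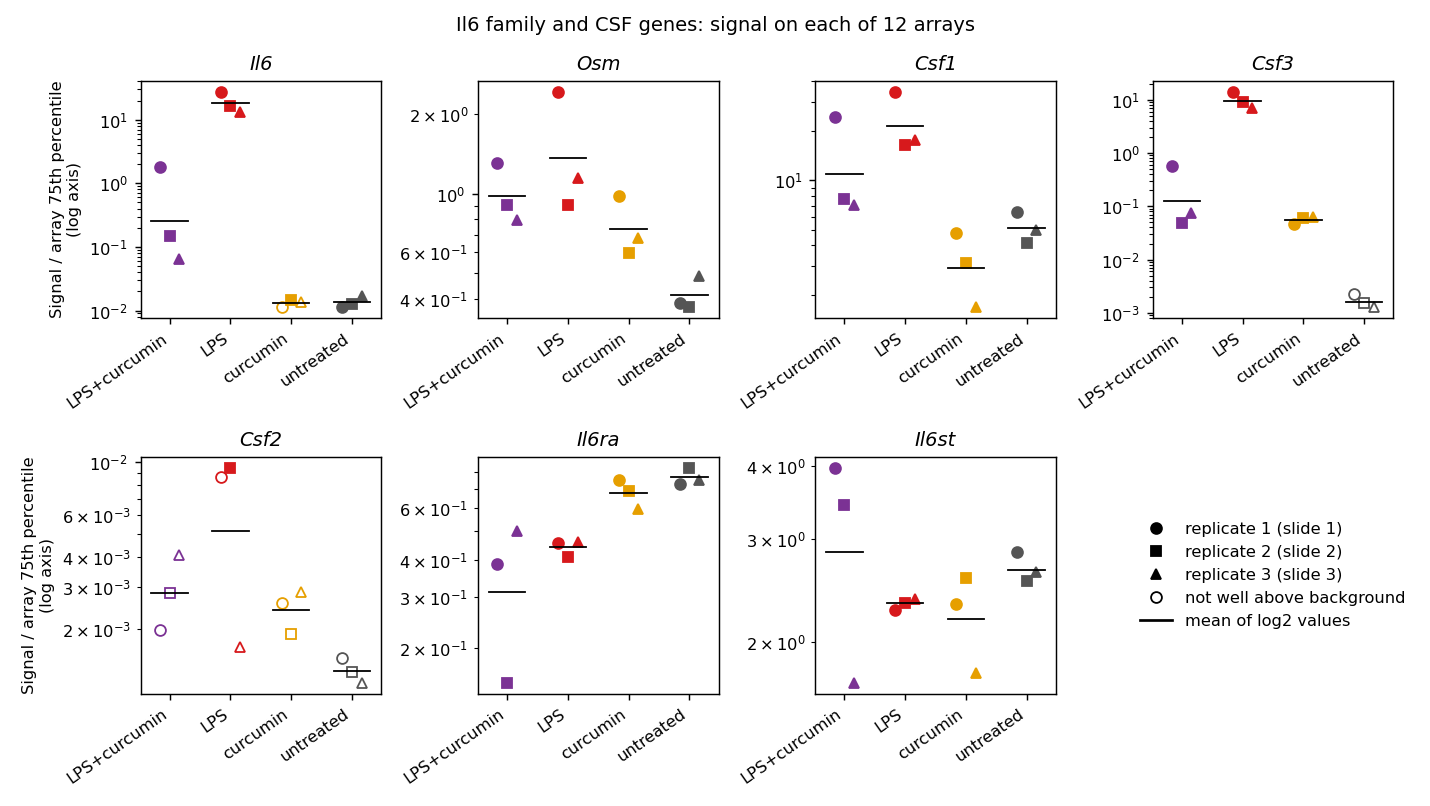
Relative signal (processed intensity divided by the array's 75th percentile, log axis) of the 7 measured members on all 12 arrays, by group. Marker shape gives the replicate, open markers were not well above background, and lines are means of log2 values; the 3 LPS arrays of Il6 and Csf3 lie above all others, and LPS+curcumin replicate 1 lies above replicates 2 and 3 for Il6, Csf1 and Csf3.

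Il6, the founding ligand of its family and an inducer of the acute phase response, had relative signals of 27.4, 16.6 and 13.2 with LPS, against 0.0114, 0.0126 and 0.0170 in untreated cells. All LPS arrays lay far above all untreated arrays, in which the gene was nevertheless well above background 3 of 3 times. The log2 difference was 10.40 ± 0.91 (SE, n = 3 per group; adjusted p = 5.99e-05), and it was 11.24, 10.37 and 9.60 within slides 1, 2 and 3. The call was made in each of 24 alternative settings in which Il6 could be tested. The size depended on the background correction, with 7.84 after normexp, a correction that raises very dim signals. The 10 spots of Il6 on the LPS arrays had coefficients of variation of 4.55%, 2.84% and 2.52%, against 17.1%, 9.85% and 9.54% on the dim untreated arrays. This spread between spots is technical and does not measure the spread between samples.

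Osm encodes oncostatin M, a ligand of the same family, and lies beside Lif in the mouse gene order on chromosome 11. Its brighter probe had relative signals of 2.43, 0.909 and 1.15 with LPS, against 0.387, 0.371 and 0.488 in untreated cells. The groups did not overlap, and LPS replicate 1 was the highest of all arrays. The log2 difference was 1.73 ± 0.35 (SE, n = 3 per group; adjusted p = 0.0149), with 2.65, 1.29 and 1.24 within the slides. The second probe gave 1.53 ± 0.38 (adjusted p = 0.0412). The call of the brighter probe was made in 18 of 25 alternative settings and lost on spike-in scaling (1.49, adjusted p = 0.162), on median scaling (1.58, adjusted p = 0.0979), with normexp (1.57, adjusted p = 0.137), without untreated replicate 1 or 2 (adjusted p = 0.0595 and 0.0741), and without all arrays of replicate 2 or 3 (adjusted p = 0.191 and 0.118).

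Csf1, which encodes the macrophage growth factor M-CSF, had relative signals of 34.4, 16.3 and 17.6 with LPS, against 6.38, 4.16 and 4.99 in untreated cells. It was well above background in all groups, and the LPS and untreated arrays did not overlap. The log2 difference was 2.07 ± 0.51 (adjusted p = 0.0388), with 2.43, 1.97 and 1.82 within the slides. The call was made in 10 of 25 alternative settings, in which the difference ran from 1.73 to 2.27 and the adjusted p from 0.0025 to 0.488. It was not made on any of the 4 other scalings (adjusted p = 0.0565 on the percentile of always detected probes, 0.0728 on quantile, 0.157 on median and 0.239 on spike-in scaling), nor with normexp (0.121), without a filter on dim probes (0.0674), or without all arrays of replicate 2 or 3 (0.488 and 0.16). Leaving out any single LPS or untreated array also ended it, with adjusted p = 0.17, 0.0752 and 0.0759 without LPS replicates 1, 2 and 3, and 0.0781, 0.158 and 0.117 without untreated replicates 1, 2 and 3. Without curcumin replicate 2 it was also lost (adjusted p = 0.0617), while with the slide as a block the adjusted p was 0.0025.

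Csf3, the gene of the granulocyte growth factor G-CSF, had relative signals of 14.1, 9.03 and 6.96 with LPS, against 0.00222, 0.00150 and 0.00126 in untreated cells. The untreated values were not well above background, so only a bound can be given: the gene was at least 1617-fold higher with LPS (adjusted p = 3.26e-06), a log2 bound of 10.66. That bound sets the LPS mean against, on each untreated array, the probe's own signal or the dimmest detected probe of that array, whichever is higher. The fitted log2 difference was 12.54 ± 0.72, with 12.63, 12.56 and 12.43 within the slides. After normexp it was 7.10, and the call was made in all 24 alternative settings in which Csf3 could be tested.

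Csf2, which encodes GM-CSF and lies beside Il3 in the gene order, stayed near background. Its relative signals were 0.00862, 0.00947 and 0.00169 with LPS, against 0.00151, 0.00133 and 0.00119 in untreated cells. It was well above background on 1 of 3 LPS arrays, replicate 2, where 8 of 10 spots passed. On LPS replicate 1, 3 of 9 spots passed, and on LPS replicate 3, 0 of 10 did, and no array of the other groups was well above background. With no filter on dim probes, the log2 difference was 1.95 ± 0.55 (adjusted p = 0.117). On LPS+curcumin replicate 2, a pair of Csf2 spots was left out as outliers and the remaining spots had a coefficient of variation of 96.0%.

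**Figure D2:**
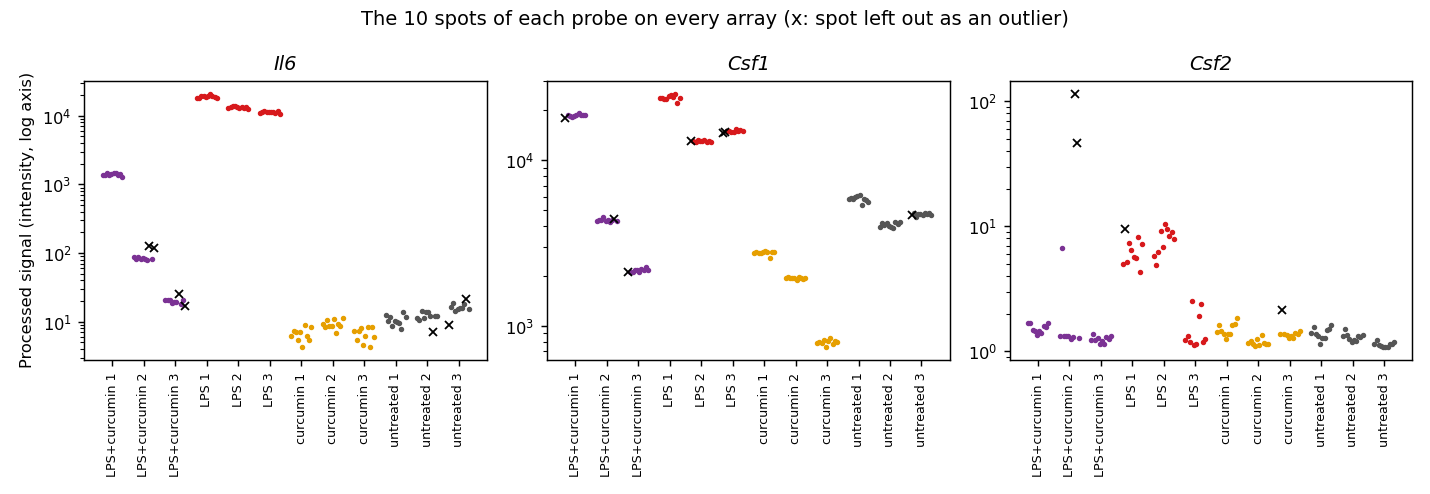
Processed signal (intensity, log axis) of the 10 spots of the Il6, Csf1 and Csf2 probes on each array, coloured by group, with crosses for spots left out as outliers. Spots lie close together within an array for Csf1 and for Il6 where it is bright, Il6 spots spread more on the dim curcumin and untreated arrays, and Csf2 lies above its other arrays on LPS replicates 1 and 2 only, apart from single spots.

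Il6ra, the ligand-binding receptor, had relative signals of 0.456, 0.409 and 0.462 with LPS by its brighter probe, against 0.727, 0.826 and 0.749 in untreated cells. The groups did not overlap, and the log2 difference was −0.80 ± 0.35 (adjusted p = 0.304). The log2 SD was 0.10 in both groups and 0.91 with LPS+curcumin, which enters the pooled spread. The second probe read 0.297, 0.219 and 0.266 with LPS, against 0.414, 0.512 and 0.453 in untreated cells. Its difference of −0.83 ± 0.20 was called (adjusted p = 0.0374), so the probes gave nearly the same difference and disagreed on the call. The brighter probe too was called (adjusted p = 0.0325) once LPS+curcumin replicate 2, which shares in the estimate of the spread, was dropped. Il6st, the shared signalling receptor gp130, read 2.27, 2.33 and 2.37 with LPS, against 2.85, 2.54 and 2.63 in untreated cells, a difference of −0.20 ± 0.29 (adjusted p = 0.944).

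Curcumin alone raised 1 of the 6 tested members, Csf3, and left the other 5 without a call. The background was 29.2% of all features called, 21.9% higher and 7.28% lower. The median difference was −0.11 over the tested members and 0.41 over all features. That median over all features depends on the scaling, being −0.01 on quantile, −0.42 on median and −0.59 on spike-in scaling, so differences with curcumin are relative to it.

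Csf3 had relative signals of 0.0464, 0.0615 and 0.0629 with curcumin, against the untreated values of 0.00222, 0.00150 and 0.00126. It was well above background on all 3 curcumin arrays and on no untreated array. The gene was at least 9.49-fold higher with curcumin (adjusted p = 0.00125), and the fitted log2 difference was 5.13 ± 0.72, with 4.38, 5.36 and 5.64 within the slides. The call was made on all 5 scalings (4.12 on spike-in scaling) and whichever single array was left out. It was lost with normexp (2.20, adjusted p = 0.065) and without all 4 arrays of replicate 2 (5.01, adjusted p = 0.0794). In these settings 4.51% and 0.104% of all features were called, against 29.2% in the main fit.

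Il6 read 0.0112, 0.0149 and 0.0135 with curcumin, against 0.0114, 0.0126 and 0.0170 untreated, and was well above background on 1 of 3 curcumin arrays. The groups overlapped, and the difference was −0.04 ± 0.91 (adjusted p = 0.976). That SE uses the spread pooled over all 4 groups. The log2 SD was 0.21 with curcumin and 0.30 untreated, against 2.50 with LPS+curcumin. Osm read 0.982, 0.598 and 0.680 with curcumin, all above the untreated values of 0.387, 0.371 and 0.488. Its difference of 0.84 ± 0.35 was not called (adjusted p = 0.0892), passed in the slide-blocked fit (adjusted p = 0.0371), and was −0.17 on spike-in scaling. The second Osm probe gave 0.97 ± 0.38 (adjusted p = 0.0735). Csf1 read 4.75, 3.14 and 1.68 with curcumin, against 6.38, 4.16 and 4.99 untreated, overlapping groups with a difference of −0.80 ± 0.51 (adjusted p = 0.229). On spike-in scaling Csf1 was −1.81 (adjusted p = 0.0595), and it was called in 1 of 25 alternative settings.

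Both receptor genes were also without a call. Il6ra by its brighter probe read 0.749, 0.686 and 0.598 with curcumin, against 0.727, 0.826 and 0.749 untreated, a difference of −0.18 ± 0.35 (adjusted p = 0.69). On spike-in scaling Il6ra was −1.19 (adjusted p = 0.0564). The second Il6ra probe gave −0.31 ± 0.20 (adjusted p = 0.243). Il6st read 2.32, 2.57 and 1.77 with curcumin, against 2.85, 2.54 and 2.63 untreated, a difference of −0.28 ± 0.29 (adjusted p = 0.443). Each pair overlapped. On median scaling Il6st was called lower (−1.12, adjusted p = 0.0456). Csf2 read 0.00257, 0.00191 and 0.00286 with curcumin, and no array of either group put it well above background.

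**Figure D3:**
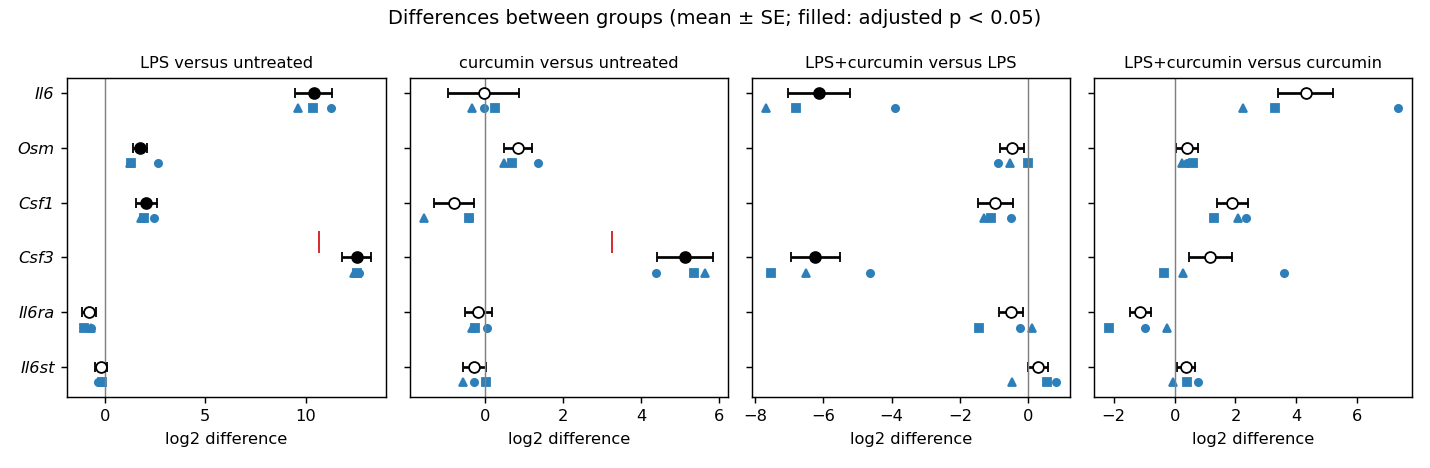
Log2 differences (black, mean ± SE, n = 3 per group; filled where adjusted p < 0.05) of the 6 tested members in 4 comparisons, with blue markers for slides 1 (circle), 2 (square) and 3 (triangle) and red ticks for the bounds of Csf3. Il6 and Csf3 lie far to the right for LPS versus untreated and to the left for LPS+curcumin versus LPS, where slide 1 has the smallest differences.

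Adding curcumin to LPS lowered the 2 most strongly induced ligand genes. Il6 was 70.1-fold and Csf3 75.1-fold lower in LPS+curcumin cells than in LPS cells, and Osm, Csf1, Il6ra and Il6st were not called. Of all features 18.7% were called, 12.7% higher and 5.99% lower. The median difference was −0.74 over the tested members and 0.32 over all features, the second being −0.39 on spike-in scaling.

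Il6 read 1.82, 0.148 and 0.0649 with LPS+curcumin, against 27.4, 16.6 and 13.2 with LPS. All LPS+curcumin arrays lay below all LPS arrays, with replicate 1 the highest of the 3. The log2 difference was −6.13 ± 0.91 (adjusted p = 0.00253). Within slides 1, 2 and 3 Il6 was 15.1-fold, 112-fold and 203-fold lower. Without LPS+curcumin replicate 1 the difference was −7.54 (adjusted p = 1.46e-07). As that array was the highest of its group, leaving it out could only widen the difference, and 54.8% of all features were then called. Il6 was called on all 5 scalings and whichever single array was left out, and not without all 4 arrays of replicate 2 (−5.79, adjusted p = 0.212) or replicate 3 (−5.36, adjusted p = 0.0654). Without replicate 2 or 3, only 0.0466% and 1.13% of all features were called.

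Csf3 read 0.566, 0.0485 and 0.0762 with LPS+curcumin, against 14.1, 9.03 and 6.96 with LPS. The groups did not overlap, and replicate 1 was again the highest LPS+curcumin array. The log2 difference was −6.23 ± 0.72 (adjusted p = 0.000793), and Csf3 was 24.9-fold, 186-fold and 91.3-fold lower within slides 1, 2 and 3. With LPS+curcumin replicate 1 left out it was −7.30 (adjusted p = 1.07e-07). That setting removes the highest array of the group, and 54.8% of all features were called in it. The call was made on all 5 scalings and lost without all arrays of replicate 2 (−5.58, adjusted p = 0.121) or replicate 3 (−6.09, adjusted p = 0.0538). Those are again the settings with 0.0466% and 1.13% of all features called.

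Csf1 read 24.2, 7.64 and 7.10 with LPS+curcumin, against 34.4, 16.3 and 17.6 with LPS. The groups overlapped through LPS+curcumin replicate 1. The difference of −0.97 ± 0.51 was not called (adjusted p = 0.184), with −0.51, −1.09 and −1.31 within the slides. It passed in the slide-blocked fit (adjusted p = 0.0378) and, at −1.54, without LPS+curcumin replicate 1 (adjusted p = 0.0116). Of all features, 28.9% and 54.8% were called in these settings. The array left out was the highest of its group. Osm read 1.31, 0.907 and 0.795 with LPS+curcumin, against 2.43, 0.909 and 1.15 with LPS, overlapping groups with a difference of −0.48 ± 0.35 (adjusted p = 0.324). The second Osm probe gave −0.18 ± 0.38 (adjusted p = 0.732), with −0.65, 0.58 and −0.48 within the slides. Csf2 read 0.00198, 0.00282 and 0.00407 with LPS+curcumin, and none of these arrays put it well above background.

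Il6ra by its brighter probe read 0.386, 0.152 and 0.503 with LPS+curcumin, against 0.456, 0.409 and 0.462 with LPS. The low value came from LPS+curcumin replicate 2, and the difference was −0.51 ± 0.35 (adjusted p = 0.288). The second probe read 0.202, 0.225 and 0.260 with LPS+curcumin and gave −0.18 ± 0.20 (adjusted p = 0.507). Il6st read 3.97, 3.42 and 1.70 with LPS+curcumin, against 2.27, 2.33 and 2.37 with LPS, a difference of 0.29 ± 0.29 (adjusted p = 0.452). Its direction turned on median and spike-in scaling (−0.44 and −0.42), and without LPS+curcumin replicate 3 it was called higher (0.66, adjusted p = 0.0467).

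**Figure D4:**
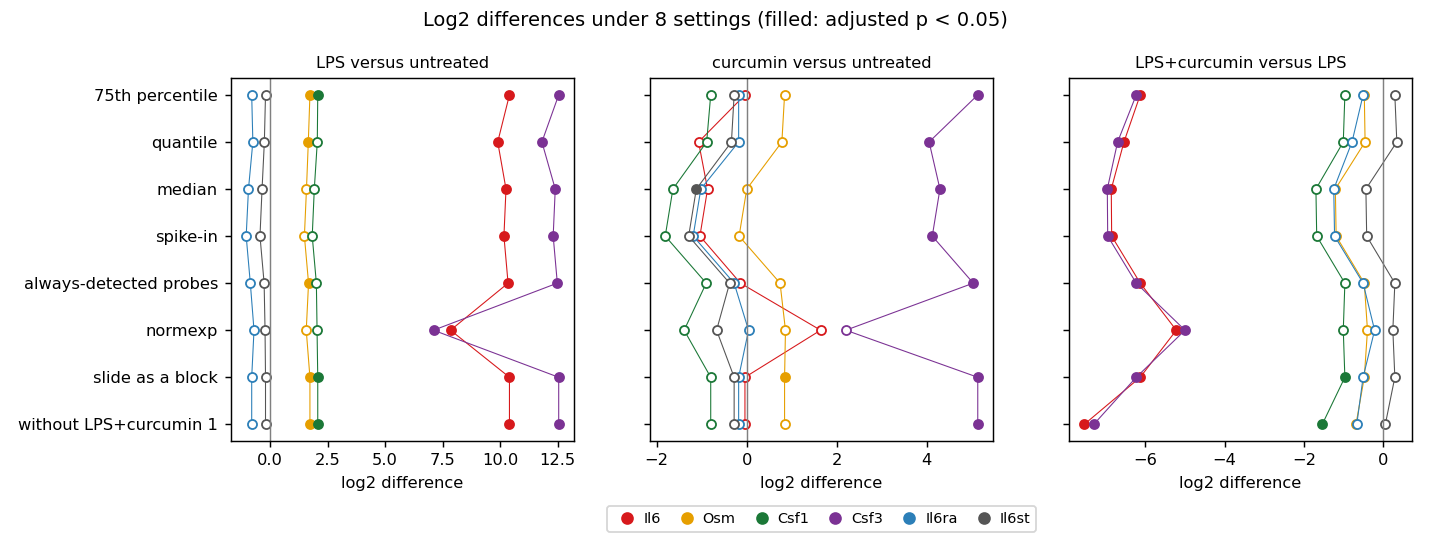
Log2 difference of the 6 tested members under 8 settings (5 scalings, normexp, the slide as a block, and without LPS+curcumin replicate 1) in 3 comparisons, filled where adjusted p < 0.05. Il6 and Csf3 are filled in all settings for LPS versus untreated and LPS+curcumin versus LPS, while the calls of Osm and Csf1 come and go.

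In cells that had curcumin, LPS gave no called member, by limma against 0.212% of all features called, 0.202% higher and 0.0104% lower. At an unadjusted limma p below 0.05, 3 members passed, Il6 and Csf1 higher and Il6ra lower, against 5.86% of all features. Il6 read 1.82, 0.148 and 0.0649 with LPS+curcumin, against 0.0112, 0.0149 and 0.0135 with curcumin. The groups did not overlap, and the difference was 4.31 ± 0.91 (adjusted p = 0.173), with 7.34, 3.31 and 2.26 within the slides. Since 1 of 3 curcumin arrays was well above background, its size depends on very dim signals, and with normexp it was 0.98 (adjusted p = 0.513). It was called without LPS+curcumin replicate 1 (2.90, adjusted p = 0.0081) and without LPS+curcumin replicate 3 (5.31, adjusted p = 0.0181).

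Csf1 read 24.2, 7.64 and 7.10 with LPS+curcumin, all above the 4.75, 3.14 and 1.68 with curcumin. Its difference was 1.90 ± 0.51 (adjusted p = 0.427), and it passed in the slide-blocked fit (adjusted p = 0.0385). Csf3 read 0.566, 0.0485 and 0.0762 with LPS+curcumin, against 0.0464, 0.0615 and 0.0629 with curcumin. These groups overlapped, and the difference was 1.18 ± 0.72 (adjusted p = 0.869), with 3.61, −0.34 and 0.28 within the slides, so that only slide 1 showed a large one. Osm, Il6ra and Il6st differed by 0.41 ± 0.35, −1.13 ± 0.35 and 0.38 ± 0.29 (adjusted p = 0.884, 0.588 and 0.875). The second probes of Osm and Il6ra gave 0.38 ± 0.38 and −0.70 ± 0.20 (adjusted p = 0.9 and 0.492).

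The interaction compares the effect of curcumin with LPS to its effect without LPS. Csf3 was the 1 member called, lower, where 0.73% of all features were called, 0.0207% higher and 0.709% lower. Its value was −11.36 ± 1.01 (adjusted p = 0.000482), and −9.48 with the untreated arrays at the detection floor. Thus curcumin accompanied more Csf3 signal in cells without LPS and less in cells with it. Within slides 1, 2 and 3 it was −9.02, −12.90 and −12.16, and without LPS+curcumin replicate 1 it was −12.43. The call was lost without all arrays of replicate 2 (−10.59, adjusted p = 0.151) or replicate 3 (−10.96, adjusted p = 0.0632). Without replicate 2 no feature at all was called for the interaction, so that loss is not particular to Csf3. Without replicate 3, 0.233% of all features were called. Il6 had an interaction of −6.09 ± 1.29 (adjusted p = 0.0664), which was called without LPS+curcumin replicate 1 (−7.50, adjusted p = 1.07e-05). That setting, in which 2.26% of all features were called, removes the highest LPS+curcumin array. Osm, Csf1, Il6ra and Il6st had −1.31 ± 0.50, −0.17 ± 0.73, −0.33 ± 0.50 and 0.57 ± 0.41 (adjusted p = 0.555, 1, 1 and 1). The second probes of Osm and Il6ra gave −1.15 ± 0.54 and 0.12 ± 0.29, neither called.

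In order of mean log2 relative signal, Il6 ran from LPS (4.18 ± 0.54, SD, n = 3 per group) through LPS+curcumin (−1.95 ± 2.50) to untreated (−6.22 ± 0.30) and curcumin (−6.25 ± 0.21). The last 2 differ by less than their spread. Csf3 had the order LPS (3.26 ± 0.51), LPS+curcumin (−2.97 ± 1.89), curcumin (−4.15 ± 0.25) and untreated (−9.28 ± 0.42, below detection), with overlap between LPS+curcumin and curcumin. Csf1 had the order LPS (4.42 ± 0.60), LPS+curcumin (3.45 ± 0.99), untreated (2.35 ± 0.31) and curcumin (1.55 ± 0.75), with overlap between neighbours at both ends. Osm had the order LPS (0.45 ± 0.74), LPS+curcumin (−0.03 ± 0.37), curcumin (−0.44 ± 0.37) and untreated (−1.28 ± 0.21), and of these steps the last lacked overlap.

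Over the 12 arrays, which share groups and slides, the genes most like each member were ranked by Pearson correlation among 1573 tested genes with an SD of at least 1. Il6 was closest to Gbp2, Ifit3 and Ifit1 (0.994, 0.993 and 0.988). Csf1 was closest to Tnfaip3, Slfn2 and Tnip1 (0.982, 0.975 and 0.973), and Csf3 to Mmp13, Slc6a4 and Isg20 (0.980, 0.979 and 0.974). Osm followed Ifnb1, Mmp10 and Phlda1 (0.921, 0.903 and 0.893). Il6ra followed Mblac2, Auh and Eef2kmt (0.910, 0.881 and 0.859), and Il6st Slc40a1, Rnf183 and Foxc1 (0.909, 0.785 and 0.767). Between members, Il6 and Csf3 correlated at 0.91, Il6 and Csf1 at 0.89, and Il6 and Il6st at 0.11.

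Among 12 further ligands of these receptors, 8 were tested. LPS raised 2 of them and lowered none, both on all 5 scalings: Ebi3 and Il27, whose products pair to form interleukin 27, differed by 2.75 ± 0.33 and 1.93 ± 0.35 (adjusted p = 0.000484 and 0.00643). With LPS+curcumin against LPS, 3 were higher and 2 lower, and Ebi3 and Il27 were the lower ones (−2.09 ± 0.33 and −1.33 ± 0.35). Of all features, 4.12% were called higher with LPS, and 12.7% higher and 5.99% lower with LPS+curcumin against LPS. Curcumin alone raised Il11 (3.54 ± 0.75, adjusted p = 0.00722) and the neurotrophic ligand gene Cntf (2.15 ± 0.43, adjusted p = 0.00551), both on all 5 scalings. These were 2 of the 8 tested, where 21.9% of all features were called higher. With LPS+curcumin against LPS, Il11, Cntf and Clcf1 were higher (2.79, 1.49 and 0.88), none of them on all 5 scalings. The list median with curcumin was 0.59, and −0.42 on spike-in scaling. With LPS+curcumin replicate 1 dropped, 4 ligands were higher with curcumin alone, and 5 were higher and 2 lower with LPS+curcumin against LPS. That setting also moved the share of all features called to 49.6% and 54.8% in these comparisons. Il34, the second ligand of the M-CSF receptor, differed by 0.09 ± 0.35 with LPS and 0.38 ± 0.35 with curcumin (adjusted p = 0.993 and 0.389).

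Of 15 receptor and shedding genes, 12 were tested and 0 passed with LPS by limma, where 5.73% of all features were called. The median over the 12 was −0.07. The M-CSF receptor gene Csf1r differed by −0.02 ± 0.26, and the GM-CSF receptor genes Csf2ra, Csf2rb and Csf2rb2 by 0.44 ± 0.23, −0.18 ± 0.21 and −0.30 ± 0.20 (adjusted p = 0.999, 0.428, 0.905 and 0.636). Lifr, the receptor gene for leukaemia inhibitory factor, differed by −0.02 ± 0.32, and the oncostatin M receptor gene Osmr was well above background on 1 of the 12 arrays and was not tested. Curcumin alone raised Il11ra1 (1.08 ± 0.31, adjusted p = 0.0278), at 0.07 after spike-in scaling, where 21.9% of all features were called higher in the main fit. With LPS+curcumin against LPS, the G-CSF receptor gene Csf3r fell by 1.60 on the log2 scale (SE 0.35, adjusted p = 0.0129), on all 5 scalings. In that comparison 5.99% of all features were called lower. Without LPS+curcumin replicate 1, 5 receptor genes were higher and 2 lower with curcumin alone, and 4 were higher and 2 lower with LPS+curcumin against LPS. That setting called 49.6% and 54.8% of all features in these comparisons. In the slide-blocked fit, 1 receptor gene was called with LPS, 4 with curcumin alone and 3 with LPS+curcumin against LPS, where 7.79%, 42.1% and 28.9% of all features were called.

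Among 21 tested signalling genes, LPS raised 9 and lowered 0, 4 of them on all 5 scalings, with a median of 0.52. Of all features, 4.12% were called higher and 1.61% lower, and 1.73% were higher on all 5 scalings. Socs3 and Cish, which encode inhibitors of cytokine signalling, differed by 3.53 ± 0.53 and 3.53 ± 0.59 (adjusted p = 0.00206 and 0.00396). Stat3 differed by 1.43 ± 0.33 and Jak2 by 1.32 ± 0.31, and the calls of both did not hold on all 5 scalings. Jak1 differed by 0.13 ± 0.19 (adjusted p = 0.944). With LPS+curcumin against LPS, 8 were lower and 1 higher, 7 of the lower calls on all 5 scalings, including Socs3 (−3.05 ± 0.53, adjusted p = 0.00502), Stat3 (−1.36 ± 0.33), the kinase gene Lyn (−1.21 ± 0.20) and the phosphatase gene Ptpn6 (−1.32 ± 0.32). Gab2, an adaptor gene, was the higher one (1.63 ± 0.36, and 0.91 on spike-in scaling). Of all features, 12.7% were called higher and 5.99% lower, and 5% were lower on all 5 scalings. Leaving out LPS+curcumin replicate 1 gave counts of 12 lower and 3 higher, and the slide-blocked fit called 14 in either direction. In these settings 54.8% and 28.9% of all features were called.

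Curcumin alone raised 2 of the 21 signalling genes, Gab2 and Cbl (2.52 ± 0.36 and 1.55 ± 0.27), and lowered Stat5b (−0.58 ± 0.19). Of all features, 21.9% were called higher and 7.28% lower. The call of Cbl did not hold on all 5 scalings (0.54 on spike-in scaling). Dropping LPS+curcumin replicate 1 gave, for curcumin alone, 3 higher and 2 lower, and the slide-blocked fit called 5. In these settings 49.6% and 42.1% of all features were called.

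**Figure D5:**
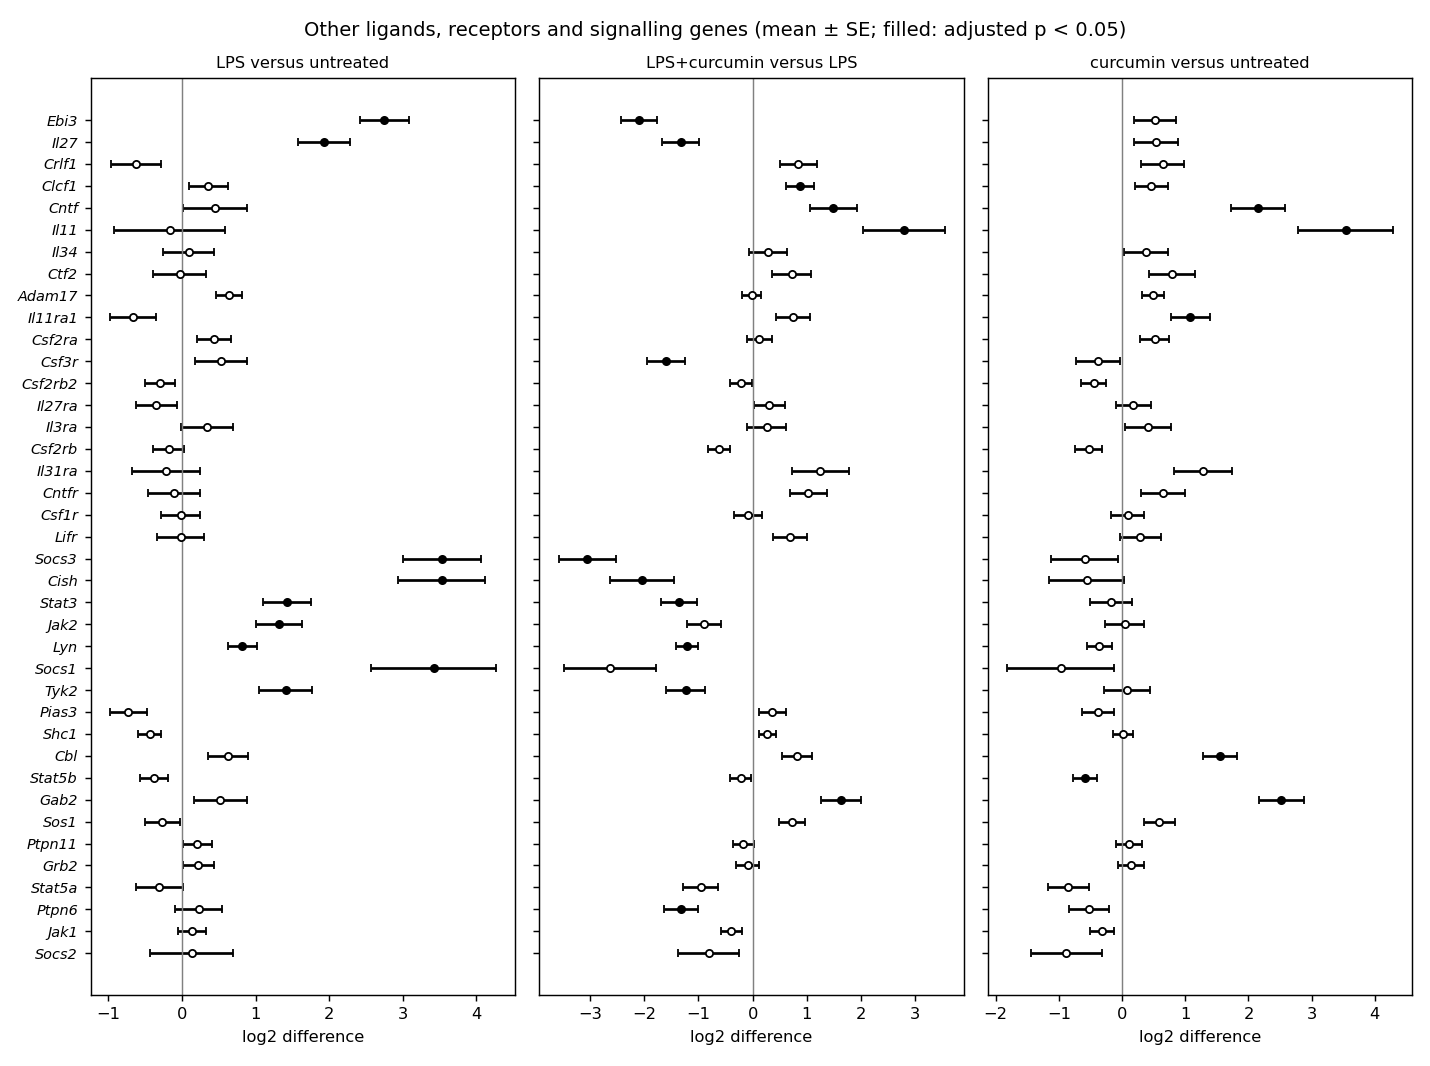
Log2 differences (mean ± SE, n = 3 per group; filled where adjusted p < 0.05) of tested genes of the lists of other ligands, receptors and signalling genes in 3 comparisons. Socs3, Cish, Ebi3 and Il27 lie to the right with LPS and to the left with LPS+curcumin against LPS, and Il11 lies to the right in both comparisons that involve curcumin.

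Of 16 tested genes that STAT3 or interleukin 6 is known to induce, LPS raised 9 and lowered 0, 5 of them on all 5 scalings, with a median of 1.89. Over all features, 4.12% were called higher and 1.61% lower, and 1.73% were higher on all 5 scalings. The acute phase gene Saa3 differed by 6.89 ± 0.86 (adjusted p = 0.000569), the kinase gene Pim1 by 2.55 ± 0.40 and Cebpd by 2.71 ± 0.58. The iron-binding lipocalin gene Lcn2 and the transcription factor gene Batf were at least 202-fold and at least 16.1-fold higher with LPS. Lcn2 was well above background on no curcumin or untreated array. It entered the test through the LPS group alone, which favours calls that set LPS above another group. With LPS+curcumin against LPS, 6 were lower and 1 higher, 5 of the lower calls on all 5 scalings, among them Lcn2 (−6.65 ± 1.16, with 1 of 3 LPS+curcumin arrays well above background, so the size is uncertain), Saa3 (−4.21 ± 0.86), Cebpd (−2.54 ± 0.58) and the survival gene Bcl2l1 (−2.23 ± 0.33). Curcumin alone raised Batf at least 23.6-fold and Pim1 (1.59 ± 0.40, and 0.59 on spike-in scaling) and lowered Bcl2l1 (−1.35 ± 0.33). Over all features, 21.9% were called higher and 7.28% lower with curcumin alone. With LPS+curcumin against LPS, 12.7% of all features were higher and 5.99% lower, and 5% were lower on all 5 scalings. Batf also had the 1 called interaction of the list (−6.72 ± 0.72, adjusted p = 0.00129), where 0.73% of all features were called. With its undetected untreated arrays at the detection floor that value was −4.77, and with normexp it was −2.34 (adjusted p = 0.694). Leaving out LPS+curcumin replicate 1, the list had 9 lower and 1 higher against LPS, and 5 lower interactions, while with curcumin alone 4 were higher and 2 lower. In that setting 54.8%, 2.26% and 49.6% of all features were called in these comparisons. In the slide-blocked fit, 7 of 16 were called with curcumin alone and 3 for the interaction, where 42.1% and 1.19% of all features were called. This list shares Socs3 with the signalling genes and Cebpb, Cebpd and Junb with the regulators below.

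Of 20 tested regulators of Il6 and Csf2 transcription or mRNA decay, LPS raised 9 and lowered 0. Of all features, 4.12% were called higher and 1.61% lower. On all 5 scalings 3 regulators were higher, against 1.73% of all features. These 3 were Nfkbiz (4.77 ± 0.32), which encodes a nuclear IκB protein needed for Il6 transcription, Zc3h12a (4.43 ± 0.31), which encodes the endonuclease Regnase-1 that degrades Il6 mRNA, and Nfkbia (2.98 ± 0.34), the NF-κB inhibitor. Arid5a, which stabilises Il6 mRNA, and Zfp36, which promotes decay of such mRNAs, differed by 1.14 ± 0.20 and 1.69 ± 0.37 (adjusted p = 0.00513 and 0.0218). Cebpb differed by 1.03 ± 0.46 (adjusted p = 0.306, and 0.0295 in the slide-blocked fit).

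With LPS+curcumin against LPS, 5 regulators were lower and 0 higher, 4 of them on all 5 scalings, including Nfkbiz (−1.55 ± 0.32), Zc3h12a (−1.50 ± 0.31) and Fos (−1.95 ± 0.33). Of all features, 5.99% were called lower and 12.7% higher, and 5% were lower on all 5 scalings. Arid5a and Zfp36 differed by −0.46 ± 0.20 and −1.08 ± 0.37 (adjusted p = 0.118 and 0.064, and 0.0864 and 0.00429 in the slide-blocked fit). Against curcumin alone, LPS+curcumin raised 3 regulators on all 5 scalings: Zc3h12a by 3.63 ± 0.31, Nfkbiz by 3.59 ± 0.32 and Nfkbia by 2.70 ± 0.34 (adjusted p = 0.000416, 0.000656 and 0.0076). Of all features, 0.202% were called higher, and 0.0776% on all 5 scalings. With normexp Zc3h12a was at 0.33 and Nfkbiz at 2.58 in that comparison, neither called. Curcumin alone raised Atf3 (1.40 ± 0.35, and 0.39 on spike-in scaling) and lowered Fos (−1.67 ± 0.33) and the mRNA decay gene Zfp36l1 (−1.29 ± 0.24). With curcumin alone 21.9% of all features were called higher and 7.28% lower. Without LPS+curcumin replicate 1, 9 regulators were lower and 3 higher against LPS, where 54.8% of all features were called. In the slide-blocked fit, 9 of 20 were called in that comparison and 6 with curcumin alone, beside the shares of 28.9% and 42.1% of all features.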

How the data were processed

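Gene expression was measured on 12 one-colour arrays of BV-2 cells, 3 per group. The deposited scanner files hold intensities on a linear scale, from which the authors had subtracted background with Agilent's Feature Extraction software (10.5.1.1 per the file headers, 9.1 per the submitters' processing notes). The series' deposited value table, also of intensities, equalled them within 0.397% and served as an alternative.

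Control spots (1639 of 45018) and outlier spots were left out, spots of a probe were averaged, and the log2 intensity minus each array's 75th percentile, computed here from the deposited values, was tested. Of 41174 probes, 25097 were named through RefSeq accessions of GRCm38.p6, which also gave gene neighbours and the promoter sequences with their coordinates. The headers name build mm9, and no array coordinate was used. Probes entered the test if some group had all 3 arrays well above background, and the brightest tested probe stood for a gene. Where an outlier spot left a probe without a value on an array, 701 tested features were fitted on the remaining arrays.

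A model of 4 group means was fitted over all arrays by lmFit and eBayes of limma (3.58.1, R 4.3.3), reading files with data.table (version 1.17.8) and jsonlite 2.0.0. P-values are two-sided and adjusted by Benjamini-Hochberg over 19319 features. Errors are standard errors from the spread pooled over the 4 groups, also for groups outside a comparison. The fit was tested on simulated data. Promoter searches and figures used Python 3.11.15, pandas 2.3.3, NumPy 2.4.6 and matplotlib 3.10.9. The number of arrays limits the precision.

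All 8 members are named throughout. From 5 gene lists, up to 6 called genes per comparison with the smallest adjusted p and a set of fixed pathway genes are named, and for each member the 3 genes most like it. Some genes of the signalling list are counted but not reported here by name. Members and lists were chosen with earlier results of these data known. Alternatives were 4 other scalings, normexp, that deposited table, other dim-probe filters, the mean over probes, the slide as a block, and single arrays or replicate numbers left out. The planned normexp used mean spot signals, which the files analysed here do not hold, so median spot signals with an offset of 50 were used, a choice made after seeing the data. Same-numbered arrays share a slide, per the headers, and their deviations from group means correlated between −0.02 and 0.71.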

Additional observations from a re-analysis of the deposited data

Results flagged for a closer look

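The effect of curcumin on Csf3 differed between cells with and without LPS by −11.36 on the log2 scale (interaction term in limma, adjusted p = 0.000482). Curcumin differed from untreated by 5.13 ± 0.72, and LPS+curcumin from LPS by −6.23 ± 0.72. With the undetected untreated arrays at the detection floor the interaction was −9.48. Both directions were seen within each of the 3 slides.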

How the results depend on the processing

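Each comparison was recomputed under 25 alternatives, and Il6 and Csf3 could not be tested where a probe had to be well above background on all arrays. With LPS versus untreated, 4 members were called, against 3 on quantile scaling, on the percentile of always detected probes and with no filter (Csf1 lost in each), 2 on median scaling, 2 on spike-in scaling, 2 with normexp and 2 under that strict filter, and between 2 and 5 with arrays left out (2 without untreated replicate 1 or 2). With curcumin versus untreated, 1 was called, against 2 on median scaling, 0 with normexp, 0 under the strict filter and 2 with the slide as a block, and 0 to 2 with arrays left out. With LPS+curcumin versus LPS, 2 were called, against 0 under the strict filter and 0 to 3 with arrays left out. With LPS+curcumin versus curcumin, 0 were called, against 1 with the slide as a block and 0 to 1 with arrays left out. For the interaction, 1 was called, against 0 under the strict filter and 0 to 2 with arrays left out. The strict filter leaves fewer members to test, and the other causes were not tested. Without all arrays of replicate 2, few features of any kind were called. Their share was 1.01% with LPS versus untreated, 0.104% with curcumin versus untreated and 0.0466% with LPS+curcumin versus LPS. With the replicate block, which is the slide, the counts in this order were 4, 2, 3, 1 and 1. There 7.79%, 42.1%, 28.9%, 0.352% and 1.19% of all features were called. With curcumin versus untreated the share was 33.3% on median scaling, against 29.2% in the main fit. For LPS versus untreated it was 3.42% on median scaling, 3.13% on spike-in scaling and 1.02% with normexp, against 5.73% in the main fit.

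Directions turned only in differences that were not called. With curcumin versus untreated, Osm turned to −0.17 on spike-in scaling, Il6ra to 0.04 with normexp, and Il6 to 1.64 with normexp, 0.08 without curcumin replicate 1, 0.13 without untreated replicate 3 and 0.11 without all arrays of replicate 3 (with arrays left out, −0.18 to 0.13). With LPS+curcumin versus LPS, Il6st turned to −0.44 on median and −0.42 on spike-in scaling. With LPS+curcumin versus curcumin, Csf3 turned to −0.11 with normexp and −0.03 without all arrays of replicate 1 (with arrays left out, −0.03 to 1.94). The interaction of Csf1 turned to 0.12 on spike-in scaling, 0.38 with normexp, and between 0.09 and 0.18 in 5 settings with arrays left out (0.17 without LPS replicate 1, 0.14 without LPS+curcumin replicate 3; −0.74 to 0.18 over all such settings), and that of Il6ra to 0.18 without LPS+curcumin replicate 2 and 0.08 without all arrays of replicate 2 (−0.72 to 0.18 over all such settings). Signal near background limits Csf2 throughout and Csf3 in untreated cells.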
